A study of Mus musculus with 10 samples.

Results

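The genes described here carry out the unfolded protein response and the ATF4 stress response. They were set as a named list of 37 genes, which is 37 of the 18193 genes that had an array probe set of their own, and fall into 5 branches: 15 endoplasmic reticulum (ER) chaperones and folding enzymes, 4 genes of ER-associated degradation (ERAD), 4 genes for the stress sensors and XBP1, 7 genes for ATF4, ATF3, CHOP and their feedback, and 7 ATF4 target genes for amino acid synthesis and transport. The rule used no measured value to name the genes, only to pick their probe sets, but the list was drawn up with earlier results of these tumors known. Each gene was read from the probe set annotated to it alone that had the highest mean over the arrays, and in Lov-treated against Vhcl-treated tumors the ER chaperone and ERAD genes were set beside the amino acid genes.

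The study compared mammary tumors of female FVB/N-Tg(MMTVneu) mice, whose neu transgene is driven in mammary epithelium by the MMTV promoter and gives spontaneous tumors. From the onset of the first tumor the mice were injected intraperitoneally with lovastatin (Lov, an inhibitor of HMG-CoA reductase) at 10 mg/kg, or with its ethanol vehicle (Vhcl), 3 times per week for 6 weeks. RNA of 5 tumors per group was hybridised to 1 Affymetrix mouse array each. The labels name every tumor but do not tie each to a mouse of its own, and a free-text label calls the Vhcl tumors not treated. The age of the mice is not given in the sources used here.

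All values below are log2 signals, on which a difference of 1 is a 2-fold change, and every difference is Lov minus Vhcl. Whole tumors were extracted. The epithelial genes Krt8, Krt18 and Epcam had signals between 11.60 and 12.73 in all 10 tumors. Of the 11 epithelial genes read, 9 were negative, with a median of -0.10, and Krt7 was lower at an unadjusted p under 0.05 (-1.10, from 6.26 to 9.43 over the tumors). Krt19 was at -1.01. Fewer cells of a type and less RNA per cell cannot be told apart in such tissue. Median signals of the arrays lay between 4.97 and 5.05. The salivary gland gene list (11 of its 13 genes measured) stood at 4.23 above its mean in Vhcl AB11, against -1.22 to 0.11 in the other 9 tumors. Its median difference was -1.93, with 9 of 11 genes negative. At an unadjusted p under 0.05, 3 of the 11 were lower, where 2.75% of all genes were.

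When unfolded proteins gather in the ER, the sensors IRE1 (Ern1), ATF6 and PERK (Eif2ak3) signal to the nucleus. IRE1 splices Xbp1 mRNA, ATF6 is cut to release a transcription factor, and both raise chaperone and ERAD genes. PERK phosphorylates eIF2α, which slows translation in general but raises that of ATF4. ATF4 can also be raised without ER stress, for example by the kinase GCN2 when amino acids run short, and it drives CHOP (Ddit3), ATF3 and genes that make and import amino acids. The probe sets read mRNA levels. They do not read splicing of Xbp1, cleavage of ATF6 or phosphorylation of eIF2α.

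The promoters below are shown because they hold motifs known from the regulation of these genes. They are those of members with full statistics that hold either of 2 motifs, at most 6 and in order of the limma p. The ER stress response element (ERSE, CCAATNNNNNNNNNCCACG) is bound by NF-Y together with ATF6 or XBP1. The CARE motif (TGATGNAA) is bound by ATF4 with a C/EBP partner. Both strands were searched in RefSeq windows (GRCm38.p6) from 250 bases before to 50 bases after each transcript start, and a match describes these letters only, not binding. Each line gives the 250 bases before the start, 5′ to 3′ on the strand of the gene, with the motif in capitals.

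Chac1 (chr2:119350992-119351241, plus strand): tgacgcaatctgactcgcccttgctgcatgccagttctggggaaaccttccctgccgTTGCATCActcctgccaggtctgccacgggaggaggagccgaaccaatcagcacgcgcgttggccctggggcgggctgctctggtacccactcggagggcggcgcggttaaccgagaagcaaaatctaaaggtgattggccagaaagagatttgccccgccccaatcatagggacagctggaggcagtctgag
Creld2 (chr15:88819396-88819645, plus strand): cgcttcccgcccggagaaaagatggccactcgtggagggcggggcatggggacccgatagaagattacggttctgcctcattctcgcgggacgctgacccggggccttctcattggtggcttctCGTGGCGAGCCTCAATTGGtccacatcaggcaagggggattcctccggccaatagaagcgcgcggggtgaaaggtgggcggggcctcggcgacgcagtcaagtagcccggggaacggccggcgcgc
Asns (chr6:7693210-7693459, minus strand): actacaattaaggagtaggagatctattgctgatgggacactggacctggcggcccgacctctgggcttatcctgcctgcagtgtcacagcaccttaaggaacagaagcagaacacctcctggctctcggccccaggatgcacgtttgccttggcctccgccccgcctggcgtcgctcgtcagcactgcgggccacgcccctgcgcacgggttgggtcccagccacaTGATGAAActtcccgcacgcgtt
Slc7a11 (chr3:50443614-50443863, minus strand): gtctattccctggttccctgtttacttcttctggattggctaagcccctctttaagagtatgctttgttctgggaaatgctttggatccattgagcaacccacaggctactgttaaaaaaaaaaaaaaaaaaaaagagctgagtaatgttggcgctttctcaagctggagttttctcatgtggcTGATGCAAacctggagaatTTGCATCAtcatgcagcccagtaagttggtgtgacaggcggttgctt
Hspa5 (chr2:34771840-34772089, plus strand): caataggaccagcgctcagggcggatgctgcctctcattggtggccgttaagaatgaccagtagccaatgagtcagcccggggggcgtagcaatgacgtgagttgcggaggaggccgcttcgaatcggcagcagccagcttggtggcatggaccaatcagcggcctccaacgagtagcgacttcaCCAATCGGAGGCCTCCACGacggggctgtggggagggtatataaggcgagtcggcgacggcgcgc
Herpud1 (chr8:94386179-94386428, plus strand): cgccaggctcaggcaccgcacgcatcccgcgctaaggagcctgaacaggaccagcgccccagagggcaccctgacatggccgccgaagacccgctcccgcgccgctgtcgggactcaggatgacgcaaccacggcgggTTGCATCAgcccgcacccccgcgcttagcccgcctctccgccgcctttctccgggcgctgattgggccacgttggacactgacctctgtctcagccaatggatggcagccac

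In Creld2 and Hspa5 the capitals mark an ERSE, which began 126 and 65 bases before the start. In Chac1, Asns and Herpud1 they mark a CARE at 193, 23 and 112 bases. Slc7a11 held a pair of CARE matches, on opposite strands, at 66 and 47 bases. No genes other than these 6 are printed, but 33 of the 37 members had a window (none for Manf, Hyou1, Atf6 and Slc7a5).

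Most members with a window held neither motif. An ERSE lay in 8 of those 33 members: 7 of 13 chaperone genes (Hspa5, Hsp90b1, Calr, Canx, Pdia6, Dnajc3 and Creld2) and Syvn1 of the ERAD genes. Over all mouse promoters it lay in 39 of 32851 windows (0.119%). A CARE lay in 6 members: Atf3, Chac1 and Trib3 of the 7 feedback genes, Asns and Slc7a11 of the 6 amino acid genes with a window, and Herpud1. It lay in 1304 windows overall (3.97%). No member held both as spelled above, and other forms of an ER stress element were not searched. In Lov-treated against Vhcl-treated tumors, the 8 members with an ERSE had a median log2 difference of 0.09, with 1 negative (Syvn1), and the 6 with a CARE had a median of -0.23, with 5 negative and Herpud1 positive. Motif and branch went together. The 7 chaperone genes with an ERSE had a median of 0.11, beside 0.13 for all 15 chaperone genes. CARE members of the ATF4, ATF3 and CHOP branch had a median of -0.26, as did the whole branch. Those of the amino acid branch had -0.355, beside -0.38 for all 7 genes. Whether a motif went with the difference within a branch was not tested.

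None of the 37 genes passed an FDR of 0.05. The lowest adjusted p of a member was 0.919 (limma, Benjamini-Hochberg over 45037 probe sets), and 0 of those probe sets (0%) passed. At an unadjusted p under 0.05, 2379 probe sets did, by limma alone. At that lenient threshold 6 members were lower in Lov-treated tumors, P4hb, Ddit3, Ppp1r15a, Chac1, Asns and Slc7a5, which is 16.2% of members beside 2.75% of all genes. Another 2, Sdf2l1 and Creld2, were higher, which is 5.41% beside 3.5% of all genes. No member separated the groups without overlap, lower or higher, where 0.346% of all genes did in each direction. The number of lower members was 2 without Lov A55 and 3 without Vhcl A45.

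The sign of the difference varied with the branch. Of the 15 chaperone genes 14 were positive, with a median of 0.13. That median was 0.07 without Vhcl AB11, 0.08 without Lov A55 and 0.22 without Vhcl A59. Of the 14, Calr, Canx and Pdia6 also had probe sets with negative differences, the lowest -0.07 for Canx, and the others had none. All 7 amino acid genes were negative, with a median of -0.38, as were 6 of 7 in the ATF4, ATF3 and CHOP branch, with a median of -0.26 (-0.16 without Vhcl A45). The median of all 18193 genes was 0.00. Such medians describe lists that share the same tumors and carry no test. The plot of differences by gene sets the branches above each other.

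**Figure D1:**
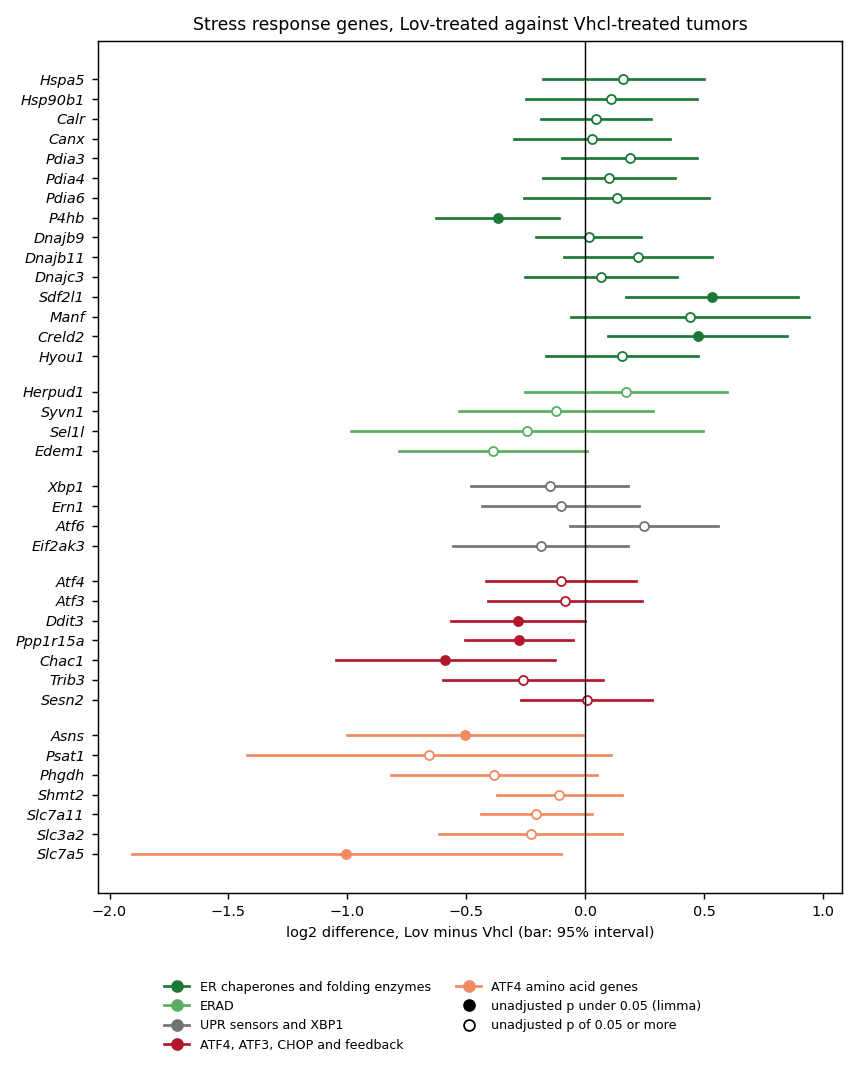
Log2 difference of each of the 37 genes, Lov minus Vhcl (x axis), in 5 branches (colors), with the 95% interval of the limma fit as a bar. Filled points are the 8 genes with an unadjusted p under 0.05. The chaperone genes lie mostly to the right of 0 and all 7 amino acid genes to its left, with Slc7a5 farthest left at -1.004.

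Among the chaperones, the genes farthest above the Vhcl-treated tumors were Sdf2l1, Creld2 and Manf, small ER-resident or secreted proteins known as targets of the unfolded protein response. Sdf2l1, a partner of the DnaJ cochaperones, had signals of 7.88 (A45), 7.19 (A49), 7.59 (A54), 7.73 (A59) and 7.4 (AB11) in Vhcl-treated tumors, and of 7.86 (A19), 8.0 (A48), 8.01 (A50), 8.61 (A55) and 7.97 (AB10) in Lov-treated ones. Of the 5 Lov-treated tumors 4 lay above every Vhcl-treated tumor, and only A19 lay inside their range. The mean was 7.56 ± 0.27 (SD, n = 5) against 8.09 ± 0.30, a difference of 0.53 (SE 0.17, 1.45-fold, limma adjusted p = 0.919). The exact permutation test gave a 2-sided p of 0.0159, where the smallest that 5 against 5 tumors allow is 0.00794.

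Creld2, an ER protein with EGF-like domains, had signals of 8.93, 8.28, 8.33, 8.94 and 8.42 in Vhcl A45, A49, A54, A59 and AB11. In Lov A19, A48, A50, A55 and AB10 they were 9.03, 8.80, 8.81, 9.42 and 9.20. Of the Lov-treated tumors 3 exceeded every Vhcl-treated one, and Vhcl A45 and A59 reached into the Lov range. The difference was 0.47 (SE 0.17, 1.39-fold, limma adjusted p = 0.928), with an exact permutation p of 0.0635. Manf, a secreted protein that protects cells under ER stress, was 0.44 above Vhcl (SE 0.23), with Lov A55 and AB10 above all Vhcl-treated tumors.

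P4hb was the exception in direction. It encodes protein disulfide isomerase, which forms disulfide bonds and is also the beta subunit of collagen prolyl hydroxylase. Its signals were 12.01, 11.68, 11.79, 11.78 and 11.46 in Vhcl A45, A49, A54, A59 and AB11, and 11.34, 11.47, 11.58, 11.33 and 11.16 in Lov A19, A48, A50, A55 and AB10. Lov A19, A55 and AB10 lay below every Vhcl-treated tumor, and Vhcl AB11 was the only Vhcl-treated tumor inside the Lov range. The difference was -0.37 (SE 0.12, 1.29-fold lower, limma adjusted p = 0.919), with an exact permutation p of 0.0238. Its promoter window held neither motif.

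Hspa5, which encodes BiP, the chaperone that holds the sensors inactive, had signals of 12.36, 11.67, 11.90, 12.19 and 11.56 in Vhcl A45, A49, A54, A59 and AB11. In Lov A19, A48, A50, A55 and AB10 they were 12.11, 11.98, 12.07, 12.34 and 11.98. The Lov-treated tumors sat inside the Vhcl range, with a smaller spread (SD 0.15 against 0.34). The difference of 0.16 (SE 0.15) had a 95% interval from -0.18 to 0.50, and an exact permutation p of 0.373. All 3 Hspa5 probe sets gave between 0.15 and 0.16.

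The remaining 10 chaperone genes had differences from 0.01 to 0.22. They were the GRP94 gene Hsp90b1 (0.11), the lectin chaperone genes Calr (0.04) and Canx (0.03), the disulfide isomerase genes Pdia3 (0.19), Pdia4 (0.10) and Pdia6 (0.13), the DnaJ cochaperone genes Dnajb9 (0.01), Dnajb11 (0.22) and Dnajc3 (0.07), and the GRP170 gene Hyou1 (0.15). None reached an unadjusted p of 0.05. The sign of Canx, Calr, Dnajb9, Hyou1 and Pdia6 turned under at least 1 other setting, and Hsp90b1 (-0.01 without Vhcl A49) and Dnajc3 (-0.05 without Lov A55) turned without 1 tumor.

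Of the 4 ERAD genes 3 were negative, and none reached an unadjusted p of 0.05. Edem1, a lectin that marks misfolded glycoproteins for disposal, had signals of 8.34, 8.52, 8.08, 8.86 and 8.16 in Vhcl A45, A49, A54, A59 and AB11, and of 8.27, 8.01, 8.28, 7.98 and 7.48 in Lov A19, A48, A50, A55 and AB10. Lov A48, A55 and AB10 lay below all Vhcl-treated tumors. The difference was -0.39 (SE 0.18, 1.31-fold lower, limma adjusted p = 0.946), with an exact permutation p of 0.0952. It was -0.26 without Lov AB10, and a second Edem1 probe set gave -0.13.

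Sel1l, the adaptor of the HRD1 ubiquitin ligase, had signals of 11.74, 9.57, 10.28, 10.80 and 10.22 in the Vhcl-treated tumors in the same order, and of 10.82, 10.11, 9.83, 10.19 and 10.43 in the Lov-treated ones. Vhcl A45 and A49 were the highest and the lowest of all 10, so the Vhcl group enclosed the Lov group. Its difference was -0.25 (SE 0.34, limma adjusted p = 0.988, exact permutation p = 0.595), and 0.06 without Vhcl A45. Syvn1, the HRD1 ligase itself, was at -0.12 (SE 0.19), and at 0.01 without that tumor.

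Herpud1, an ER membrane protein of the same complex, had signals of 10.04, 9.21, 9.76, 9.22 and 9.66 in the Vhcl-treated tumors and of 9.42, 10.26, 9.85, 9.68 and 9.54 in the Lov-treated ones. The groups overlapped broadly, with a difference of 0.17 (SE 0.19, limma adjusted p = 0.988, exact permutation p = 0.452). The median of the 4 ERAD genes was -0.18, and 0.04 without Vhcl A45.

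Read from the probe sets chosen by the rule, neither the sensor genes nor Xbp1 reached an unadjusted p of 0.05. Atf6 had signals of 6.49, 6.55, 7.16, 6.99 and 6.98 in Vhcl A45, A49, A54, A59 and AB11, and of 6.87, 7.25, 7.19, 7.09 and 7.0 in Lov A19, A48, A50, A55 and AB10. Vhcl A45 and A49 were the only tumors below 6.87. The difference was 0.25 (SE 0.14, limma adjusted p = 0.971, exact permutation p = 0.167). Dimmer Atf6 probe sets gave 0.06 and 0.36, the latter at an unadjusted p under 0.05 (limma adjusted p = 0.932).

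Eif2ak3 (PERK) had signals of 8.96, 8.74, 8.22, 8.58 and 8.30 in the Vhcl-treated tumors in the same order and of 8.23, 8.55, 8.58, 8.55 and 7.95 in the Lov-treated ones. AB10 alone lay below the Vhcl range, and the difference was -0.19 (SE 0.17, limma adjusted p = 0.988, exact permutation p = 0.325). Ern1 (IRE1) was at -0.10 (SE 0.15).

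Xbp1, which encodes the transcription factor activated by splicing, had signals of 12.77, 12.96, 12.76, 13.12 and 12.30 in the Vhcl-treated tumors, and of 12.82, 12.81, 12.62, 12.49 and 12.42 in the Lov-treated ones. Every Lov-treated tumor lay inside the Vhcl range. The difference was -0.15 (SE 0.15, 95% interval -0.48 to 0.18, exact permutation p = 0.397). Its other bright probe sets gave -0.29 and -0.31, and the dimmest gave 0.34.

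In the ATF4, ATF3 and CHOP branch, Chac1, Ppp1r15a and Ddit3 were lower at an unadjusted p under 0.05 and Atf4 mRNA was not, and whether they differed from Atf4 was not tested. Atf4 had signals of 10.06, 9.71, 9.62, 9.81 and 9.48 in Vhcl A45, A49, A54, A59 and AB11, and of 9.51, 9.42, 9.63, 9.53 and 10.08 in Lov A19, A48, A50, A55 and AB10. AB10 was the highest of all 10 tumors and A48 the lowest. The difference was -0.10 (SE 0.14, 95% interval -0.42 to 0.21, exact permutation p = 0.508). ATF4 is controlled in good part at translation, which the arrays do not read.

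Chac1, an ATF4 and CHOP target that degrades glutathione, had signals of 5.76, 6.47, 5.69, 6.06 and 5.45 in the Vhcl-treated tumors and of 5.76, 5.42, 5.34, 4.75 and 5.22 in the Lov-treated ones. Of the Lov-treated tumors 4 lay below every Vhcl-treated tumor, and A19 was level with Vhcl A45. The difference was -0.59 (SE 0.21, 1.503-fold lower, limma adjusted p = 0.928), with an exact permutation p of 0.0397. The mean signal of Chac1 lay under the median of all genes, and with such genes left out 4 members were lower, as Chac1 was not tested and Ddit3 no longer reached an unadjusted p of 0.05.

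Ppp1r15a (GADD34), which recruits a phosphatase to eIF2α and so ends the signal, had signals of 7.30, 7.20, 7.23, 7.08 and 7.02 in the Vhcl-treated tumors and of 6.98, 7.0, 7.05, 6.68 and 6.72 in the Lov-treated ones. Again 4 Lov-treated tumors lay below the whole Vhcl group, here all but A50. The difference was -0.28 (SE 0.10, 1.21-fold lower, limma adjusted p = 0.928), with an exact permutation p of 0.0159. Without Lov A55 it was -0.23 and no longer under an unadjusted p of 0.05.

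Ddit3 (CHOP), the proapoptotic factor of the pathway, had signals of 7.42, 7.19, 7.16, 6.97 and 7.17 in the Vhcl-treated tumors and of 7.26, 6.91, 6.86, 6.88 and 6.58 in the Lov-treated ones. All but A19 lay below the lowest Vhcl-treated tumor, A59. The difference was -0.28 (SE 0.13, 1.22-fold lower, limma adjusted p = 0.939), with an exact permutation p of 0.0794. It stayed under an unadjusted p of 0.05 in 2 of the 10 fits that left out a tumor, those that left out Lov A19 (-0.37) or Vhcl A59 (-0.34), and ranged from -0.37 to -0.20 over the 10. A dimmer Ddit3 probe set gave 0.16.

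Trib3, a pseudokinase that damps ATF4 and CHOP, was at -0.26 (SE 0.15), Atf3 at -0.08 (SE 0.15) and Sesn2, a stress-induced inhibitor of mTORC1, at 0.01 (SE 0.13). Lov A55 held the lowest of the 10 signals for 4 of the 7 genes of the branch. Lov AB10 and Vhcl A45 each held the highest for 3 and the lowest for 1.

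The widest difference of the 37 genes was that of Slc7a5, which encodes LAT1, the importer of leucine and other large neutral amino acids. Its signals were 8.98, 8.43, 8.13, 9.53 and 7.27 in Vhcl A45, A49, A54, A59 and AB11, and 8.40, 7.54, 7.74, 7.02 and 6.62 in Lov A19, A48, A50, A55 and AB10. Lov A55 and AB10 lay below every Vhcl-treated tumor, while A19, A48 and A50 sat within the Vhcl range, and Vhcl A54 and AB11 within the Lov range. The mean was 8.47 ± 0.86 (SD, n = 5) against 7.46 ± 0.68, a difference of -1.004 (SE 0.41, 2.01-fold lower, limma adjusted p = 0.932), with an exact permutation p of 0.0794. It was no longer under an unadjusted p of 0.05 without Vhcl A45 (-0.88), Vhcl A59 (-0.74), Lov A55 (-0.89) or Lov AB10 (-0.79). Its partner Slc3a2, the CD98 heavy chain that carries LAT1 to the membrane, was at -0.23 (SE 0.18).

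Asns (asparagine synthetase), whose CARE lay 23 bases before the start, had signals of 9.41, 9.15, 7.96, 8.47 and 8.68 in the Vhcl-treated tumors and of 8.35, 8.09, 8.34, 8.18 and 8.19 in the Lov-treated ones. The Lov-treated tumors were close together (SD 0.11 against 0.57), with Vhcl A54 below all of them and the other Vhcl-treated tumors above. The difference was -0.50 (SE 0.23, 1.42-fold lower, limma adjusted p = 0.939), with an exact permutation p of 0.111. It stayed under an unadjusted p of 0.05 without Vhcl A54 (-0.70) or Vhcl A59 (-0.57) and in none of the other 8 fits that left out a tumor, with -0.34 as the smallest difference, without Vhcl A45. A second Asns probe set gave -0.64.

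Slc7a11, the cystine importer xCT, had signals of 3.59, 3.12, 3.33, 3.41 and 3.35 in the Vhcl-treated tumors and of 3.01, 3.08, 3.33, 3.10 and 3.25 in the Lov-treated ones. All lay under the median signal of every array, so the probe set was dim throughout. The difference was -0.21 (SE 0.11, limma adjusted p = 0.968), with an exact permutation p of 0.0556.

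The serine pathway genes were also negative. Psat1 was at -0.66 (SE 0.35; -0.42 without Lov AB10, -0.37 without Vhcl A59) and Phgdh, the first enzyme of that pathway, at -0.38 (SE 0.20). Phgdh ran from 8.18 to 9.27 in Vhcl-treated tumors and from 8.19 to 8.67 in Lov-treated ones. Its other 3 probe sets gave -0.90, -0.89 and -0.47, so the probe set chosen by the rule gave the smallest difference of the 4. Shmt2, the mitochondrial serine hydroxymethyltransferase, was at -0.11 (SE 0.12). The plot of single tumors shows 12 genes across the branches.

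**Figure D2:**
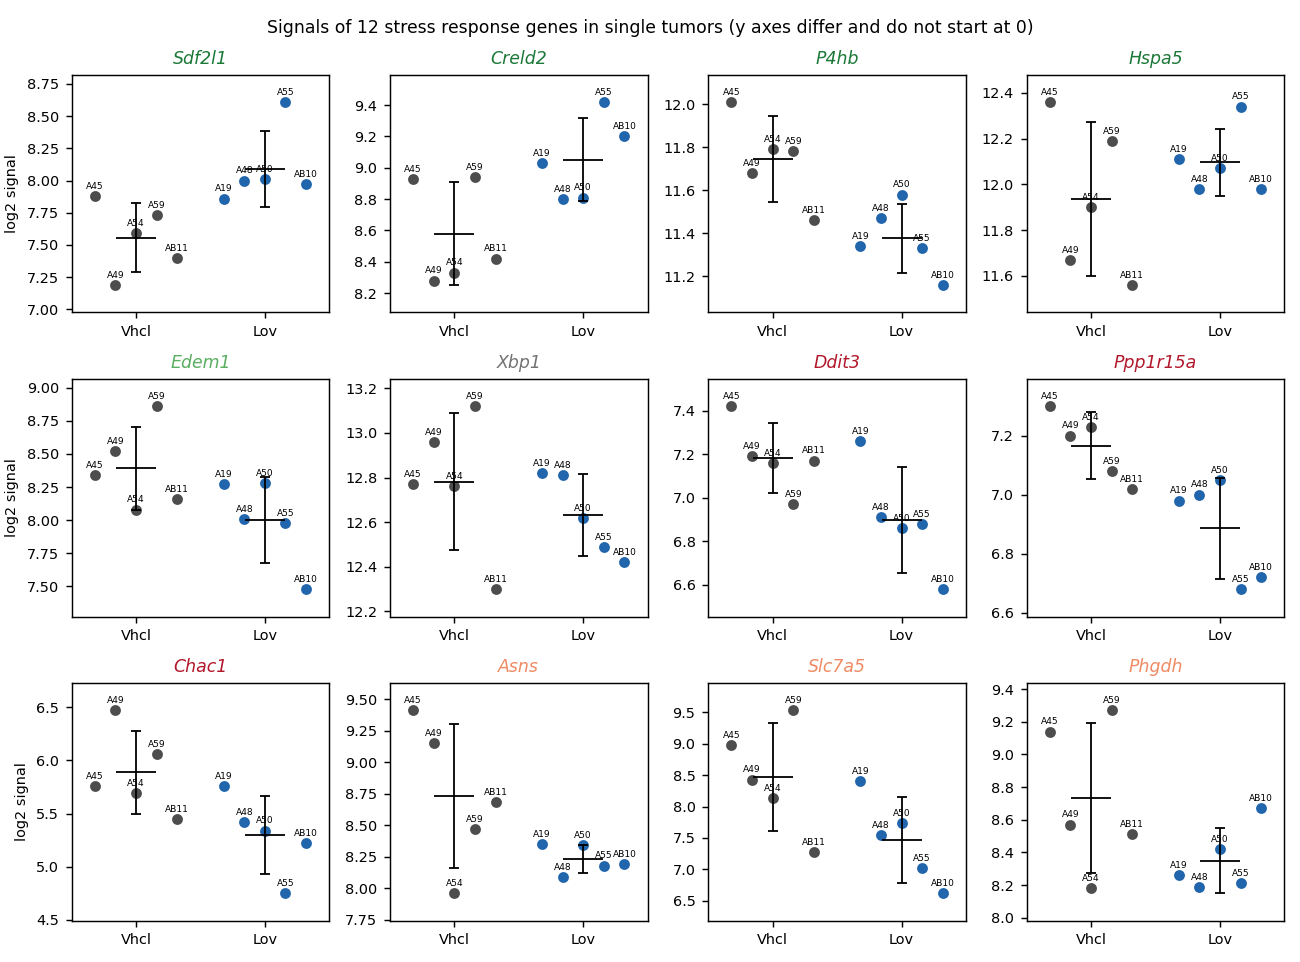
Log2 signals (y axis, scaled to each gene and not starting at 0) of 12 genes in the 5 Vhcl-treated (gray) and 5 Lov-treated (blue) tumors, each point labelled with its tumor, with the group mean and SD as a line and bars. Chac1, Ddit3 and Ppp1r15a each have 4 Lov-treated tumors below the whole Vhcl group, and Sdf2l1 has 4 above it.

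To set the branches against each other within tumors, a branch level was taken as the median over its genes of the signal minus that gene's mean over the 10 tumors. The chaperone level ran from -0.28 to 0.13 in Vhcl-treated and from -0.04 to 0.32 in Lov-treated tumors, so the groups overlapped, with A55 the only Lov-treated tumor above the Vhcl range. Vhcl A49 held the lowest signal of all 10 tumors for 7 of the 15 chaperone genes, and Lov A55 the highest for 6. The ERAD level ran from -0.28 to 0.49 in Vhcl-treated and from -0.22 to 0.13 in Lov-treated tumors.

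The amino acid level was 0.54, 0.03, 0.05, 0.15 and 0.02 in Vhcl A45, A49, A54, A59 and AB11, and -0.10, -0.35, -0.12, -0.27 and -0.30 in Lov A19, A48, A50, A55 and AB10. The groups did not overlap, although no single gene of the branch separated them. The level of the ATF4, ATF3 and CHOP branch ran from -0.01 to 0.27 in Vhcl-treated tumors and from -0.35 to 0.11 in Lov-treated ones, where A19 (0.11) was the only tumor inside the Vhcl range.

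The chaperone and ERAD level minus the amino acid level was -0.39, -0.22, -0.16, 0.02 and -0.25 in the Vhcl-treated tumors and 0.06, 0.32, 0.14, 0.53 and 0.29 in the Lov-treated ones. The means were -0.20 ± 0.15 (SD, n = 5) and 0.27 ± 0.18, and the groups did not overlap. That is no separate result, as the difference contains the amino acid level, which separated the groups by itself. The chaperone and ERAD level overlapped, at -0.233 to 0.174 in Vhcl-treated and -0.042 to 0.255 in Lov-treated tumors. As differences of medians, the 19 chaperone and ERAD genes (0.11) and the 7 amino acid genes (-0.38) lay 0.49 apart. That gap was 0.51 without Lov A19, 0.51 without Vhcl AB11, and between 0.39 and 0.66 over the fits that left out 1 tumor each. Because of how the list was chosen, the gap is a description and was given no test.

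**Figure D3:**
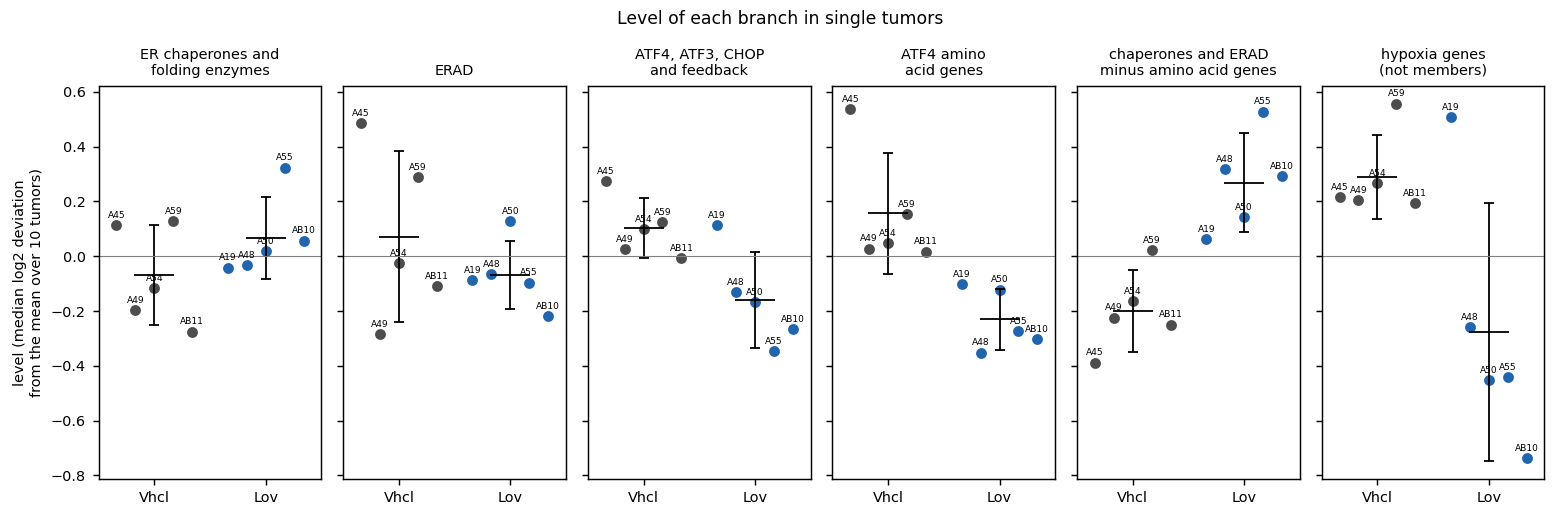
Level of each branch in single tumors (y axis: median over the branch of the log2 signal minus the gene's mean over 10 tumors), Vhcl-treated in gray and Lov-treated in blue, with the group mean and SD. The amino acid level and the difference between the chaperone and ERAD level and the amino acid level do not overlap between the groups, the other levels do, and Lov A19 alone of the Lov-treated tumors has a hypoxia level (0.51) within the Vhcl range.

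Genes of the hypoxia response outside the list were mostly negative too. Of 20 such genes, all measured, 12 were lower at an unadjusted p under 0.05, where 2.75% of all genes were. Of these 20 genes 18 were negative, with a median difference of -0.56. Their level ran from 0.20 to 0.56 in Vhcl-treated tumors and was 0.51 in Lov A19, and -0.26, -0.45, -0.44 and -0.74 in Lov A48, A50, A55 and AB10. A19 was also the Lov-treated tumor with the highest level of amino acid genes and of the ATF4, ATF3 and CHOP branch. The amino acid level of A19 (-0.10) was close to that of A50 (-0.12) and lay below every Vhcl-treated tumor (lowest 0.02). Its ATF4, ATF3 and CHOP level (0.11) lay within the Vhcl range. The part of the hypoxia genes in the result was not tested. Without Lov A19 the median of the amino acid genes was -0.36. Beta-actin 3′ minus 5′ signal, a measure of RNA integrity, was 0.80 to 1.35 in Vhcl-treated and 0.67 to 1.07 in Lov-treated tumors, and with it as a covariate the gap between the branches was 0.43. Plasma cells, which make much ER protein, had a marker list (12 genes) with a median difference of 0.08 and levels of -0.17 to 0.16 in Vhcl-treated and -0.22 to 0.19 in Lov-treated tumors. Its members went both ways. Igha, an immunoglobulin heavy chain gene, was lower at an unadjusted p under 0.05 (-1.23), and Jchain was at -1.05.

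Other cell types were read in the same way. The 7 skeletal muscle genes were all negative, with a median of -0.90 and levels of -1.18 to 2.31 in Vhcl-treated and -1.36 to 2.17 in Lov-treated tumors. Of 8 fibroblast genes 6 were negative (median -0.46), with levels of -0.68 to 0.79 and -1.50 to 0.86. Of 12 milk secretion genes 7 were negative (median -0.39), with levels of -1.30 to 1.11 and -0.46 to 0.14. At an unadjusted p under 0.05, 2 milk secretion genes were higher, Lalba (0.94) and Muc15 (0.87), and 0 lower. Of all genes 3.5% were higher and 2.75% lower at that threshold. The levels of these lists overlapped between the groups. The medians of the macrophage, T and NK cell, endothelial and adipocyte lists were -0.08, 0.11, 0.07 and -0.08. Of 13 macrophage genes, Csf1r (0.43) was higher and Fcgr1 (-0.34) and Itgam (-0.34) lower at an unadjusted p under 0.05. At that threshold Cd3g (0.51) of 9 T and NK cell genes was higher and Fabp4 (-0.86) of 6 adipocyte genes lower. No endothelial gene reached it. The part of these cell types in the differences of the members was not tested.

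**Figure D4:**
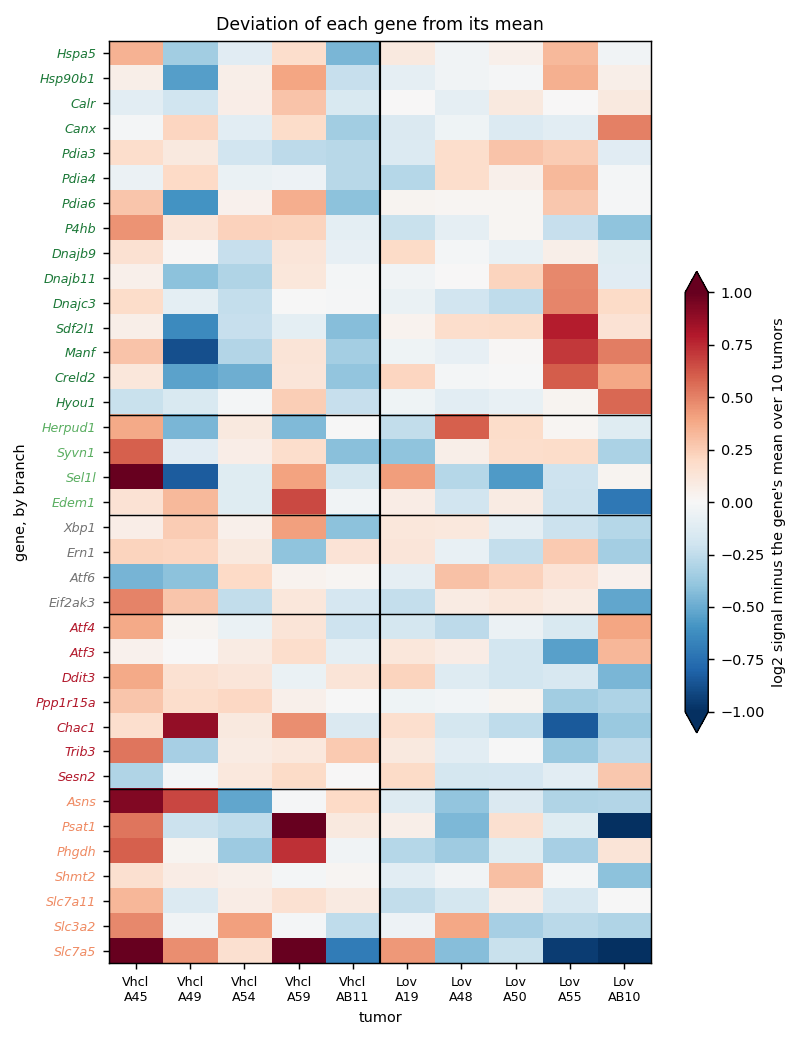
Log2 signal of each gene minus its mean over the 10 tumors (color, cut at 1 in either direction), with genes in rows by branch and tumors in columns, Vhcl-treated left of the black line. Vhcl A49 has the lowest signal for 7 of the 15 chaperone genes and Lov A55 the highest for 6, while the bottom block of amino acid genes is mostly red on the left, above all in A45 and A59, and mostly blue on the right.

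The rest of the pathway was read from lists of 171 further genes, 162 of them measured. At an unadjusted p under 0.05, 7 were lower (4.32%, beside 2.75% of all genes) and 2 higher (1.23%, beside 3.5%), and none passed an FDR of 0.05. Their median difference was -0.04.

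Of 23 further genes of the integrated stress response, 15 were negative and 4 of them passed that threshold. Gadd45a, a stress gene of the growth arrest and DNA damage family, was the only one of these 4 without overlap, at 6.15 to 7.05 in Vhcl-treated and 4.75 to 6.06 in Lov-treated tumors (difference -0.85, SE 0.25, limma adjusted p = 0.919). Nupr1, a stress-induced chromatin protein, was at -0.66 (SE 0.25), Eif4ebp1, a brake on cap-dependent translation, at -0.55 (SE 0.25), and Ddit4, an inhibitor of mTORC1 that is also on the hypoxia list, at -0.53 (SE 0.22).

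Of 29 other ER folding genes 18 were negative and 11 positive, with a median of -0.04. Of 22 other ERAD genes 13 were positive and 9 negative, with a median of 0.07. Among the 29 folding genes, Ero1a was the only one lower at that threshold, at -1.12 (SE 0.37). It encodes the oxidase that recharges protein disulfide isomerase and is also a hypoxia gene. Lov A19 had a signal of 9.90, inside the Vhcl range of 9.04 to 10.70, and the remaining Lov-treated tumors ranged from 8.05 to 8.73. Of 34 genes for entry into and exit from the ER, Srp68 of the signal recognition particle (-0.36, SE 0.12) and Sec61a1 of the translocation channel (-0.31, SE 0.14) were lower. Ube2g2, a ubiquitin-conjugating enzyme of ERAD (0.23, SE 0.10), was higher. So was Nfyc, a subunit of the NF-Y factor that binds the CCAAT part of the ERSE (0.45, SE 0.15). The other NF-Y subunit genes, Nfya and Nfyb, were at 0.03 (SE 0.14) and -0.29 (SE 0.15).

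Further amino acid genes lay nearer to 0. A list of 13 genes, tRNA synthetases known as ATF4 targets and the tRNA exporter Xpot (0.10), had a median of -0.09, with 10 negative, and the 21 other amino acid and one-carbon genes had a median of -0.04, with 13 negative. No gene of either list reached an unadjusted p of 0.05.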

How the data were processed

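RNA from 10 mouse mammary tumors, 5 Vhcl-treated and 5 Lov-treated, had been hybridised to Affymetrix mouse whole-genome arrays. The authors made the deposited log2 signals with RMA in the affy package, per the submitters' processing notes; versions are not given in the sources used here. RMA adjusts background, normalizes the arrays to each other by quantiles and summarizes each probe set, so a shift shared by all genes would not be seen. Signals carry 2 decimals, and precision is limited by the number of arrays.

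Groups, dose and schedule came from the labels. Lov was compared with Vhcl in limma 3.58.1 (R 4.3.3; linear model, empirical Bayes, prior degrees of freedom 3.61) on 45037 probe sets after 64 array controls were left out, as a 2-sided test, and p-values were adjusted by Benjamini-Hochberg across these probe sets. Of them, 34945 carried 1 gene symbol, 932 several and 9160 none, and 34741 matched a mouse gene table by gene identifier. Standard errors and 95% intervals are limma's. Exact permutation tests used all 252 assignments of 5 of 10 tumors, 2-sided, unadjusted over the members. P-values measure the spread between these tumors, which may share mice. The script was tested on simulated data.

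The members, branches, other lists and tests were chosen with earlier results of these data known. All 37 members are named. Full statistics were given for the 3 lowest p-values of each branch plus Hspa5, Xbp1, Atf4, Ddit3 and Asns. Other pathway genes were named at an unadjusted p under 0.05, at most 4 per list. Hypoxia genes and markers of the cell types a tumor or its neighbouring tissue could hold were read beside the members. Promoters are RefSeq's (GRCm38.p6), matched by symbol. No build is named for the arrays. Alternatives covered the prior, moderation, array weights, scaling, covariates, the probe set of a gene, a signal filter and left-out tumors.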

Additional observations from a re-analysis of the deposited data

Results flagged for a closer look

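Among 84 groups of 5 tumors (37 genes and 5 branch levels, in each treatment), 8 held a tumor whose gap to its nearest neighbor exceeded 0.71 of the whole range of the group. Chance gives about 1 in 20.

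Lov A55 stood above the other Lov-treated tumors in Sdf2l1 (8.61 against 7.86 to 8.01), in Pdia6 (9.82 against 9.54 to 9.58) and in the level of the chaperones and folding enzymes (0.323 against -0.042 to 0.057). Without this tumor Sdf2l1 was still higher by 0.40 at an unadjusted p under 0.05.

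Lov AB10 stood above its group in Canx (11.08 against 10.43 to 10.53) and Hyou1 (8.39 against 7.71 to 7.84), and below it in the level of the sensors and Xbp1 (-0.312 against 0.013 to 0.109).

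Vhcl A59 was low in Ern1 (6.71 against 7.21 to 7.34). Vhcl A45 was high in the level of the amino acid genes (0.537 against 0.017 to 0.153), and without it the median difference of those genes was -0.28.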

How the results depend on the processing

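Over 24 other settings the 37 members gave 878 differences. Of these 777 kept their sign and their side of an unadjusted p of 0.05. Another 36 kept the sign but passed to 0.05 or more, 26 passed below it, and 39 changed sign. Many could not change sign. The prior, the moderation, the signal filter and the letters of the tumor name as a covariate leave the difference as it was. Another choice of probe set does so for the 11 members with 1 probe set. The 777 is therefore no measure of robustness. P4hb, Sdf2l1, Creld2 and Chac1 stayed under 0.05 in each of the 10 fits that left out 1 tumor. No other scaling moved the median of all genes by more than 0.1. The cause of the changes below was not tested.

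The number of lower members was 3 without moderation of the variance (Ddit3, Asns and Slc7a5 lost) and 2 to 7 over the fits that left out 1 tumor. The number of higher members was 1 (Creld2 lost) without Lov A19 and Vhcl AB11, and 1 without Lov AB10 and Vhcl AB11.

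With each gene read as the mean over its probe sets, the ATF4, ATF3 and CHOP branch was at -0.100, the amino acid genes were at -0.570 and the gap between chaperones with ERAD and the amino acid genes was 0.696. Leaving out 1 tumor gave 0.385 to 0.660 for that gap. The sensors and Xbp1 were at 0.071 with probe sets of a plain name (ending in _at alone, so not marked as shared between transcripts, which 29 members had) and at 0.183 with the probe set of lowest mean, which put the ATF4, ATF3 and CHOP branch at -0.084.

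Signs changed mostly in genes near 0. Canx turned to -0.011 with array weights, -0.037 as the mean over probe sets, -0.068 with a plain name, -0.072 with the lowest mean, -0.015 without Lov A19 and Vhcl AB11, -0.178 without Lov AB10 and Vhcl AB11, -0.017 without Vhcl AB11 and A59, and ran from -0.094 to 0.085 without 1 tumor. Sesn2 turned to -0.061 with array weights, -0.012 with centred arrays, -0.012 with quantile normalization, -0.023 as the mean over probe sets, -0.052 with the lowest mean, -0.040 without Lov A19 and Vhcl AB11, -0.060 without Lov AB10 and Vhcl AB11, and ran from -0.068 to 0.055 without 1 tumor. Dnajb9 turned to -0.004 with centred arrays and -0.050 without Lov A19 and Vhcl AB11, and ran from -0.042 to 0.053 without 1 tumor. Atf3 turned to 0.051 with the beta-actin covariate and ran from -0.178 to 0.042 without 1 tumor. Without Lov AB10 and Vhcl AB11, Calr turned to -0.008 and Hyou1 to -0.010. With the probe set of lowest mean, Calr turned to -0.018, Pdia6 to -0.020, Eif2ak3 to 0.030, Ddit3 to 0.162 and Xbp1 to 0.336, which a plain name also gave (0.336). Without 1 tumor, Pdia6 ran from -0.002 to 0.238, Dnajc3 from -0.047 to 0.138, Syvn1 from -0.241 to 0.012, Sel1l from -0.484 to 0.058 and Hsp90b1 from -0.014 to 0.223. No paired analysis was possible because the tumors of the groups share no replicate numbers. The Slc7a11 probe set was dim on every array.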
